A study of Mus musculus with 22 samples.

Results

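The interaction of AhR loss with house dust mite (HDM) exposure asks whether the difference between AhR-/- and WT lung epithelial cells (ECs) is the same in naive mice and in mice with HDM-induced allergic airway inflammation. It is a difference of differences, AhR-/- minus WT after HDM less AhR-/- minus WT at steady state, in log2 units and for each gene. Its members are the protein-coding genes of the deposited count tables, 21793 of 54373 genes listed, of which 16639 passed a filter on low counts and were tested. The contrast uses 15 of the 22 libraries of the series, namely 4 WT and 3 AhR-/- naive libraries and 4 WT and 4 AhR-/- HDM libraries. A positive value means that AhR-/- stood higher relative to WT after HDM than in naive mice, and a negative value that it stood lower.

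RNA-seq was done on lung ECs sorted as live CD45-CD31-EpCAM+ cells from WT C57BL/6, AhR-/- and CYP1B1-/- mice, the knockouts being backcrossed to C57BL/6. Mice were of both sexes and over 7 weeks old. HDM mice had received Dermatophagoides farinae extract into the nose, once for sensitization and then on consecutive days for challenge, and cells were taken 72 h after the last instillation, while naive mice had no allergen. No deletion limited to a cell type is described, so that by design AhR was missing from leukocytes and stroma as well as from ECs. The labels do not say whether each library came from 1 mouse, so p-values measure the spread between libraries. The naive and the HDM libraries lie in separate tables, named as separate runs. State and run therefore cannot be told apart within a genotype, but the run cancels in each AhR-/- minus WT difference.

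AhR is a ligand-activated transcription factor that dimerizes with ARNT, binds response elements with the core GCGTG and induces enzymes of xenobiotic metabolism such as Cyp1a1, Cyp1b1 and Nqo1. In barrier tissues it is known for shaping epithelial differentiation, junctions and the response to inflammation. The lung epithelium is made of flat alveolar type 1 cells, surfactant-secreting type 2 cells and the club, goblet, basal and ciliated cells of the airways, and after allergen damage type 2 and club cells divide and restore it.

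By p of the interaction, Cxcl13, Fgf18 and Smad9 came first in the positive and Eno2 and Hps4 in the negative direction. Nqo1 came first among genes of the AhR pathway and Mcm7 among those of the cell cycle. The promoter windows of these genes, the 250 bases before the RefSeq start site (GRCm38.p6, written 5′ to 3′ on the gene's strand), are shown so that the known binding letters can be seen beside the values. Capitals mark GCGTG or its reverse complement CACGC in the first 6 windows, and TTTNNCGC or its reverse complement GCGNNAAA, an E2F-type element of replication genes, in the window of Mcm7. The windows are, in this order, chr5:95956689-95956938, plus strand, chr11:33147401-33147650, minus strand, chr3:54755332-54755581, plus strand, chr6:124769674-124769923, minus strand, chr5:112342845-112343094, plus strand, chr8:107403206-107403455, minus strand and chr5:138171884-138172133, minus strand, the first of the start sites listed for Mcm7.
Cxcl13: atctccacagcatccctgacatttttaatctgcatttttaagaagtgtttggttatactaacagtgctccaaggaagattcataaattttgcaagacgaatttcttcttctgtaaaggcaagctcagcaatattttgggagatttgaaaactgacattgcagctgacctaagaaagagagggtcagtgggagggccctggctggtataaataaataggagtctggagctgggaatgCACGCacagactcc
Fgf18: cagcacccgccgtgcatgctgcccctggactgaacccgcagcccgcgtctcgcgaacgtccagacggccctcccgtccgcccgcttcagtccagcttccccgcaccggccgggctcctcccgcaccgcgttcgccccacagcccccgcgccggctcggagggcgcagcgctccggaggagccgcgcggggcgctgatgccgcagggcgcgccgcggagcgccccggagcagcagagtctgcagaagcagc
Smad9: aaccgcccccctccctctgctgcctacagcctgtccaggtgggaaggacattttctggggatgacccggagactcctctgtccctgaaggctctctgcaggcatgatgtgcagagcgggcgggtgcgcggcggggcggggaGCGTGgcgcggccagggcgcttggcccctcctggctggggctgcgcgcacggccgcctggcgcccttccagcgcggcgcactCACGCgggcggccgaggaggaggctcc
Eno2: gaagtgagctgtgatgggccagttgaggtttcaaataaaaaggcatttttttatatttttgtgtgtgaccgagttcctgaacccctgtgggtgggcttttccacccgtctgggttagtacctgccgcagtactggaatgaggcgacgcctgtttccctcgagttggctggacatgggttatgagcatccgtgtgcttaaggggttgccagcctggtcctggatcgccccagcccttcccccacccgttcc
Hps4: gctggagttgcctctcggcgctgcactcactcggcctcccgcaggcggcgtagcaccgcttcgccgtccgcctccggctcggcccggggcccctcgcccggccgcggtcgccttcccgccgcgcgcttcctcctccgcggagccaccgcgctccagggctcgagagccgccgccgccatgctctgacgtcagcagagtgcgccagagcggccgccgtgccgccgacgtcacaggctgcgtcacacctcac
Nqo1: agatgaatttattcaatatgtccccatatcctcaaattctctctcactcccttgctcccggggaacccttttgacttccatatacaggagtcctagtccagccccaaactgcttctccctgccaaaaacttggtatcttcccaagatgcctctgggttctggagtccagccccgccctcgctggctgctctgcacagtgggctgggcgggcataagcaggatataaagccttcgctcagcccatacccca
Mcm7: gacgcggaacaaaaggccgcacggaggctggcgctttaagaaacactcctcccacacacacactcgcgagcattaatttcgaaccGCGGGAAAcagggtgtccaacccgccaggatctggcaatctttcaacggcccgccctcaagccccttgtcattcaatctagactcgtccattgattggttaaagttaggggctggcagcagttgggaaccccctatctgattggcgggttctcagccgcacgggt

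The core was present once in the window of Cxcl13, 2 times in that of Smad9 and in none of the windows of Fgf18, Eno2, Hps4 and Nqo1. It was held by 28.2% of all 32851 RefSeq promoter windows of this length and by 39.2% of those of the genes tested. The share was 41.4% for genes with a positive interaction at an unadjusted p under 0.05 and 44.4% for those with a negative one. The E2F-type letters were held by 5.88% of windows of the genes tested, by 4.94% in the positive and 8.0% in the negative direction, and by 6 of 43 windows of the cell cycle list. They were absent from the window of the second start site of Mcm7 and from those of Mcm2 and Mcm3. These are counts of letters in a fixed window on both strands, and they say nothing of binding.

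The targeted gene was read first in every library. Ahr (ENSMUSG00000019256, chromosome 12) was counted at 6.38, 8.21, 11.4 and 12.3 CPM (reads of the gene per 1e+06 of the normalized library size) in the WT naive libraries and at 17.1, 15.5 and 20.1 CPM in the naive libraries labelled AhR-/-. After HDM, it was at 20, 13.4, 18 and 9.62 CPM in WT and at 25.1, 12.8, 25.5 and 23.9 CPM in the libraries labelled AhR-/-. Ahr was thus not lower in any naive library labelled AhR-/- than in WT, and the interaction of Ahr was -0.37 ± 0.46 (adjusted p = 0.736). Counts are summed over all exons of the gene, and a transcript lacking some exons would still be counted, so these counts neither bear out nor contradict the labels. The groups below are named by their labels.

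Libraries differed in depth and make-up, most of all after HDM. Total counts ranged from 9654825 to 17878442 over the 15 libraries, but 6 predicted genes, Gm10800 the most abundant, took 11.6 to 26.6% of the counts of the naive and 0.0106 to 88.2% of those of the HDM libraries, so that 1180756 protein-coding counts outside them remained in AhR-/- HDM replicate 3 and 16447855 in AhR-/- HDM replicate 1. Against the normalized library size, 3 counts stand for 0.107 to 1.36 CPM in the HDM and for 0.138 to 0.203 CPM in the naive libraries of the contrast. The median SD of log2 CPM between libraries of a group was 0.315 in WT naive and 0.219 in AhR-/- naive, against 0.566 in WT HDM and 0.615 in AhR-/- HDM libraries.

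Markers of cells outside the sort gate differed between the groups. Ptprc, the CD45 antigen of all leukocytes, was counted at 52.6, 14.5, 5.42 and 2.02 CPM in WT and at 7.67, 3.33 and 3.88 CPM in AhR-/- naive libraries. After HDM, it stood at 436, 209, 637 and 365 CPM in WT and at 161, 99.2, 27.8 and 14.8 CPM in AhR-/- libraries, and no AhR-/- library reached the lowest WT one. The log2 difference of Ptprc was -1.91 in naive and -2.43 in HDM mice, with an interaction of -0.53 ± 1.28 (adjusted p = 0.893), and the interaction was 0.30 without AhR-/- HDM replicates 3 and 4. The summed level of 20 macrophage and myeloid markers was 719.9 to 1625 CPM in WT naive, 488 to 1156 in AhR-/- naive, 2927 to 7258 in WT HDM and 803 to 13018 in AhR-/- HDM libraries, none of the 20 being at 0 in any group. The 2 lowest of the AhR-/- HDM values belong to replicates 3 and 4, in which Ptprc lay within the range of the naive libraries. These 2 libraries also carried reads of Y-linked genes (4 genes summed, 172 and 191 CPM), as did all naive libraries of the contrast (167 to 249.9 CPM), whereas the other 6 HDM libraries of the contrast had at most 0.258 CPM, so sex differs between the states in WT but only in part in AhR-/- mice. The part of leukocyte reads and of sex in the values below was not tested beyond the counts given without replicates 3 and 4 and with a hematopoietic marker score in the fit. Epcam, used for the sort, was at 86.2 to 148 CPM in naive and 68.2 to 269.8 CPM in HDM libraries, with an interaction of -0.61 ± 0.52 (adjusted p = 0.584).

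**Figure D1:**
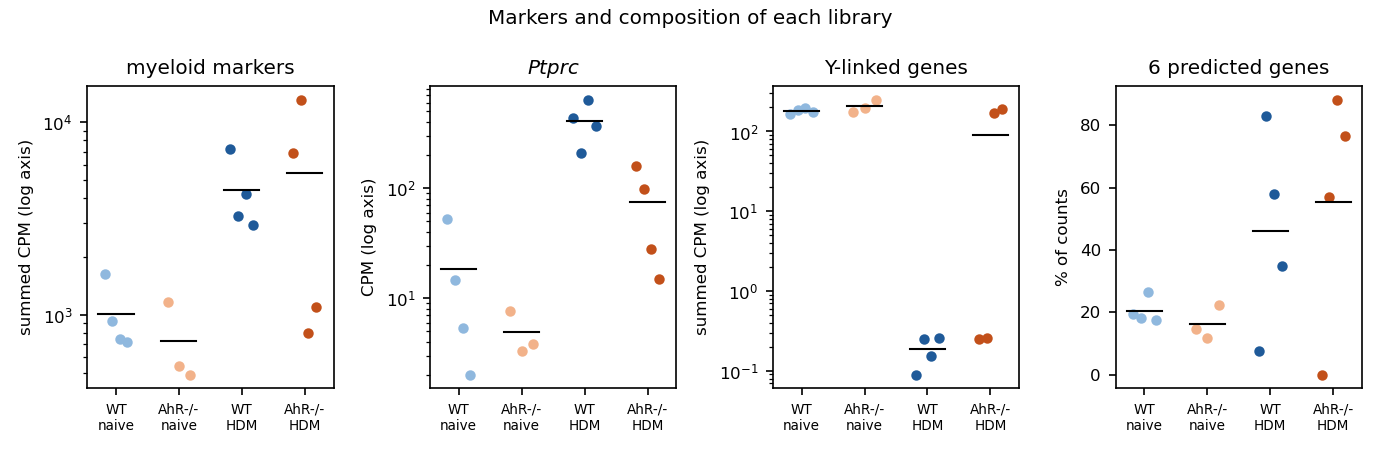
Myeloid marker, Ptprc and Y-linked reads and library composition, 1 point per library and a bar at the group mean. From left, the summed CPM of 20 macrophage and myeloid markers, the CPM of Ptprc and the summed CPM of 4 Y-linked genes are on log axes, and the share of counts on 6 predicted genes is on a linear axis. AhR-/- HDM replicates 3 and 4 are the 2 lowest of their group for myeloid markers and the only HDM libraries of the contrast above 0.258 CPM for the Y-linked genes.

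No gene passed the adjusted threshold for the interaction, 0 of 16639 (0%) with a Benjamini-Hochberg adjusted p of at most 0.05 by the quasi-likelihood F test of edgeR, and the lowest adjusted p was 0.149. At an unadjusted p under 0.05 there were 3050 genes (18.3%), 1542 with a positive (9.27%) and 1508 with a negative interaction (9.06%). The split of the unadjusted count was 2178 positive and 1496 negative with upper-quartile size factors. By voom, a different model with sample weights, it was 2790 and 3925. The other tests called more at the adjusted threshold, 221 genes by edgeR's likelihood ratio test, 1236 by DESeq2 and 4735 by limma voom with sample weights. The quasi-likelihood test itself called 1001 genes when only the 15 libraries of the contrast were fitted, and 1017 without AhR-/- HDM replicate 2. Without AhR-/- HDM replicates 3 and 4 it called 0 genes, and 2034 of 17203 stood at an unadjusted p under 0.05, 6.88% positive and 4.94% negative. Genes are therefore described below by the size of the interaction ± its standard error, with edgeR's adjusted p for those given in full, and all genes named from here on for their interaction stood at an unadjusted p under 0.05 unless stated.

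The genotypes differed little in naive mice and widely after HDM. In naive mice, AhR-/- and WT libraries differed by a median absolute log2 value of 0.150 over all genes tested, with 0 genes (0%) at the adjusted threshold of edgeR's test and 100 at an unadjusted p under 0.05. After HDM the median absolute difference was 0.604, and 3966 genes (23.8%) passed the adjusted threshold, 1882 higher (11.3%) and 2084 lower (12.5%) in AhR-/-. That count dropped to 165 without AhR-/- HDM replicates 3 and 4, with 35 lower (0.203%). The naive difference was within 1 log2 unit for 1485 of the 1542 genes with a positive and 1493 of the 1508 with a negative interaction. The median absolute log2 value of HDM minus naive was 0.797 in WT and 0.654 in AhR-/-, values that include the run and carry no test.

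The most frequent pattern was a WT level that moved between the tables beside an AhR-/- level that moved less. Of the 1542 genes with a positive interaction, 832 were lower in WT HDM than in WT naive by at least 1 log2 unit while AhR-/- stayed within 1 unit (54%, against 11.7% of all genes tested), and 186 were lower by at least 1 unit in both genotypes (12.1%, against 9.81%). A further 190 were higher by at least 1 unit in AhR-/- HDM only (12.3%, against 4.94%). Of the 1508 genes with a negative interaction, 567 were higher in WT HDM alone by at least 1 unit (37.6%, against 7.45%), 385 were higher in both genotypes (25.5%, against 11.8%) and 241 were lower in AhR-/- HDM alone (16%, against 5.27%). Movement of each genotype in opposite directions by at least 1 unit was seen in 58 of the positive and 4 of the negative genes, against 0.397% of all genes tested. The interaction itself selected these genes, so the counts describe them and test nothing.

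**Figure D2:**
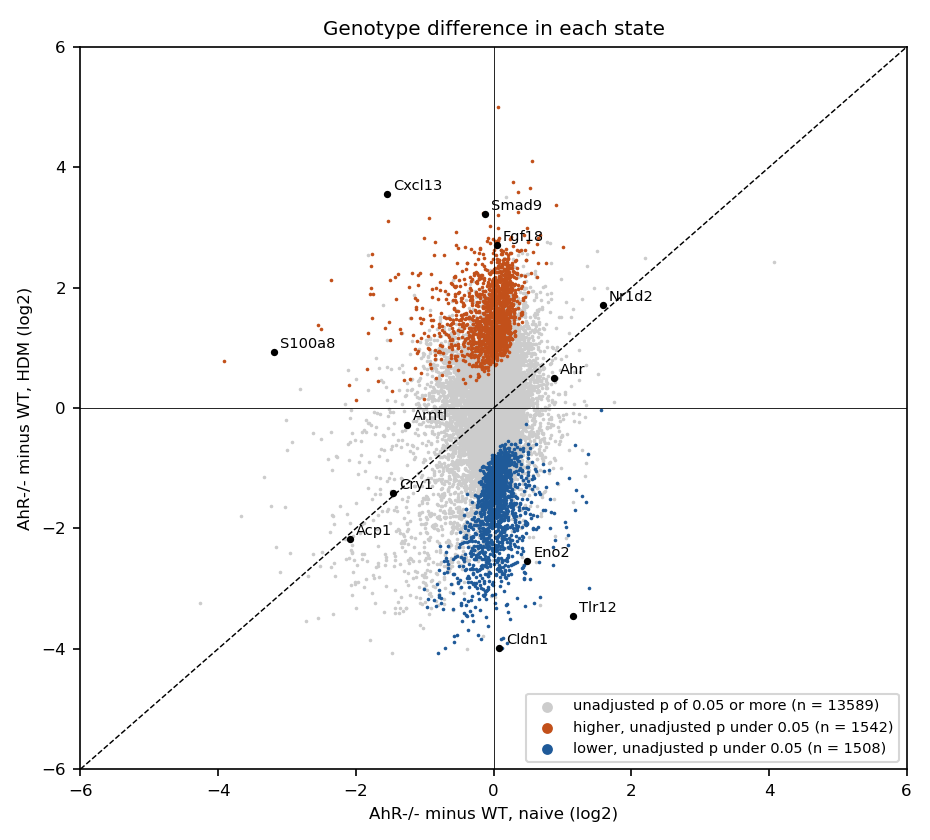
Log2 difference between AhR-/- and WT in naive libraries (horizontal axis) against the same difference after HDM (vertical axis), 1 point per gene tested, with the line of equal differences dashed. Genes with an unadjusted interaction p under 0.05 lie above (1542 genes) or below (1508 genes) the line and spread along the vertical axis, while Acp1, Cry1 and Nr1d2 lie near the line, and 4 genes fall outside the axes.

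The 12 genes of lowest p in the positive direction were Cxcl13, Fgf18, Smad9, Peg3, Cemip2, Tex15, Ccdc125, Calhm5, Cpox, Prkca, Zfp612 and Kif1b. Together with the 12 of the negative direction they share an adjusted p of 0.149 in edgeR's test, and all 24 passed the adjusted threshold when only the 15 libraries of the contrast were fitted. When AhR-/- HDM replicates 3 and 4 were left out, none of the 24 did so, and all remained at an unadjusted p under 0.05. For 23 of the 24, the AhR-/- and WT libraries did not overlap after HDM, where 8.37% of all genes tested had every AhR-/- library above and 8.46% every one below WT. The 24 were chosen by p in these same libraries, so the lack of overlap describes them and tests nothing.

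Cxcl13, the chemokine that draws B cells to follicles, was low in every group and highest in the AhR-/- HDM libraries. It was counted at 1.55, 1.36, 0.339 and 0.506 CPM in WT naive, 0.240, 0.575 and 0.123 in AhR-/- naive, 0.269, 0.254, 0.913 and 0.449 in WT HDM and 5.66, 3.01, 2.73 and 10.1 in AhR-/- HDM libraries. In raw counts the HDM values were 6, 1, 6 and 7 in WT and 158, 35, 6 and 57 in AhR-/- libraries. Every AhR-/- HDM library stood above every other library of the contrast. The interaction was 5.10 ± 0.94 (adjusted p = 0.149), from a log2 difference of -1.55 in naive and 3.55 in HDM mice.

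Fgf18, a fibroblast growth factor of the developing and repairing lung, was at 7.40, 7.84, 9.14 and 9.48 CPM in WT naive and 9.52, 7.87 and 8.80 in AhR-/- naive libraries. After HDM it was at 0.987, 1.01, 1.22 and 0.833 CPM in WT and 6.52, 2.49, 7.28 and 10.4 in AhR-/- libraries. Its WT level was low in each HDM library, 3 of 4 AhR-/- HDM libraries lay close to the naive range, and the interaction was 2.67 ± 0.52 (adjusted p = 0.149).

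Smad9, a SMAD protein phosphorylated by BMP receptors, showed the same order. Naive values were 7.34, 8.58, 12.2 and 11.4 CPM in WT and 9.88, 9.36 and 7.87 in AhR-/-. HDM values were 0.852, 1.52, 1.07 and 1.28 CPM in WT and 7.31, 2.49, 17.7 and 17 in AhR-/-, with replicate 2 the lowest of the AhR-/- group and replicates 3 and 4 above every naive library. The interaction was 3.35 ± 0.68 (adjusted p = 0.149) and 2.22 without those 2 replicates.

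The other positive genes had like profiles at different levels. Peg3, an imprinted zinc finger gene, stood at 5.66 to 9.66 CPM in naive, 1.35 to 3.55 in WT HDM and 6.61 to 14.7 in AhR-/- HDM libraries, with an interaction of 2.63 ± 0.54. Prkca, which encodes protein kinase C alpha, had 34.9 to 55.4 CPM in naive, 3.96 to 8.37 in WT HDM and 14.3 to 34.1 in AhR-/- HDM libraries (2.18). Kif1b, a kinesin motor gene and one of the better counted of the set, had 110.1 to 149.6, 19.3 to 28.2 and 36.9 to 93.1 CPM in the same order (1.70). For Prkca and Kif1b every AhR-/- HDM library lay between the WT HDM and the naive libraries, and for Peg3 within or above the naive range. Calhm5, a gene of the calcium homeostasis modulator channel family, and the zinc finger gene Zfp612 followed with 2.87 and 1.80.

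Cpox, the coproporphyrinogen oxidase of heme synthesis, and Ccdc125 were, like Peg3, above every naive library in at least 3 AhR-/- HDM libraries. Cpox was at 3.01 to 4.88 CPM in naive, 1.67 to 3.30 in WT HDM and 5.41 to 8.56 in AhR-/- HDM libraries (1.82 ± 0.41). Ccdc125 was at 5.37 to 6.95, 1.52 to 3.00 and 6.89 to 8.24 CPM in the same order (1.80 ± 0.39). Cemip2, a cell-surface protein of hyaluronan breakdown, and Tex15, known from meiosis, were lower in every AhR-/- than in every WT naive library and higher in every AhR-/- than in every WT HDM library. Cemip2 was at 23.3, 27.7, 19.8 and 29 CPM in WT and 13.5, 12.2 and 17.2 in AhR-/- naive libraries, and after HDM at 5.92, 5.33, 4.72 and 5.38 in WT and 10, 11.4, 10.5 and 9.01 in AhR-/-. The interactions of Cemip2 and Tex15 were 1.73 ± 0.36 and 2.15 ± 0.46.

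The 12 genes of lowest p in the negative direction were Eno2, Hps4, Hps6, Aldh16a1, Spsb1, B3galt4, Csrnp1, Plxdc1, Pola1, Pif1, Itpk1 and Lmbr1l. Eno2, the neuron-type enolase of glycolysis, was at 0.477, 0.617, 0.406 and 0.736 CPM in WT naive and 0.898, 0.747 and 0.738 in AhR-/- naive libraries. After HDM it was at 5.56, 4.82, 12.5 and 9.49 CPM in WT and 1.36, 1.80, 1.36 and 0.884 in AhR-/- libraries. WT HDM libraries stood above all others, AhR-/- exceeded WT slightly in naive mice without overlap, and the interaction was -3.03 ± 0.62 (adjusted p = 0.149).

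Pola1, the catalytic subunit of the DNA polymerase that starts replication, and Pif1, a DNA helicase, stood out in WT HDM libraries. Pola1 was at 2.48 to 3.50 CPM in all naive libraries, at 11.6, 10.1, 24 and 22.4 in WT HDM and at 4.12, 3.44, 1.82 and 3.36 in AhR-/- HDM libraries (-2.44 ± 0.58, adjusted p = 0.149). Pif1 was at 0.0920 to 0.575, 3.30 to 8.08 and 0.752 to 1.24 CPM in the same order (-3.47 ± 0.83). For Pola1 the AhR-/- HDM libraries lay near the naive range, and for Pif1 above it but below every WT HDM library, on naive counts of only 2 to 10 reads. Plxdc1, a plexin domain gene, had 15.8, 5.33, 15.7 and 15.4 CPM in WT HDM, with replicate 2 far under the others, and 3.01, 1.80, 0.910 and 0.884 in AhR-/- HDM libraries (-3.27 ± 0.78).

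Hps4 and Hps6 encode subunits of the BLOC-3 and BLOC-2 complexes, which build lysosome-related organelles. Hps6 was at 8.64 to 12.7 CPM in naive, 12.9, 8.12, 14 and 10.1 in WT HDM and 1.61, 4.81, 2.73 and 1.94 in AhR-/- HDM libraries (-2.09 ± 0.46, adjusted p = 0.149). Hps4 had 7.59 to 10.4 CPM in naive, 13.4 to 33.8 in WT HDM and 3.18 to 8.59 in AhR-/- HDM libraries (-2.33 ± 0.51). Every AhR-/- HDM library lay below every naive library for Hps6, as did 3 of 4 for Hps4, and for Hps4 the WT HDM libraries lay above the naive ones. Lmbr1l, which encodes a membrane receptor-like protein, resembled Hps6, with 4.74 to 9.84, 4.49 to 9.28 and 1.77 to 2.49 CPM in naive, WT HDM and AhR-/- HDM libraries (-1.96 ± 0.47). The ubiquitin ligase adaptor gene Spsb1 (-2.36), the ganglioside galactosyltransferase gene B3galt4 (-2.16), the aldehyde dehydrogenase family gene Aldh16a1 (-2.65), the nuclear factor gene Csrnp1 (-2.56) and the inositol phosphate kinase gene Itpk1 (-2.18) completed the set. Csrnp1 was the gene of the 24 whose HDM libraries overlapped, at 20, 8.37, 38 and 24.3 CPM in WT and 5.66, 9.88, 2.73 and 3.53 in AhR-/-.

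**Figure D3:**
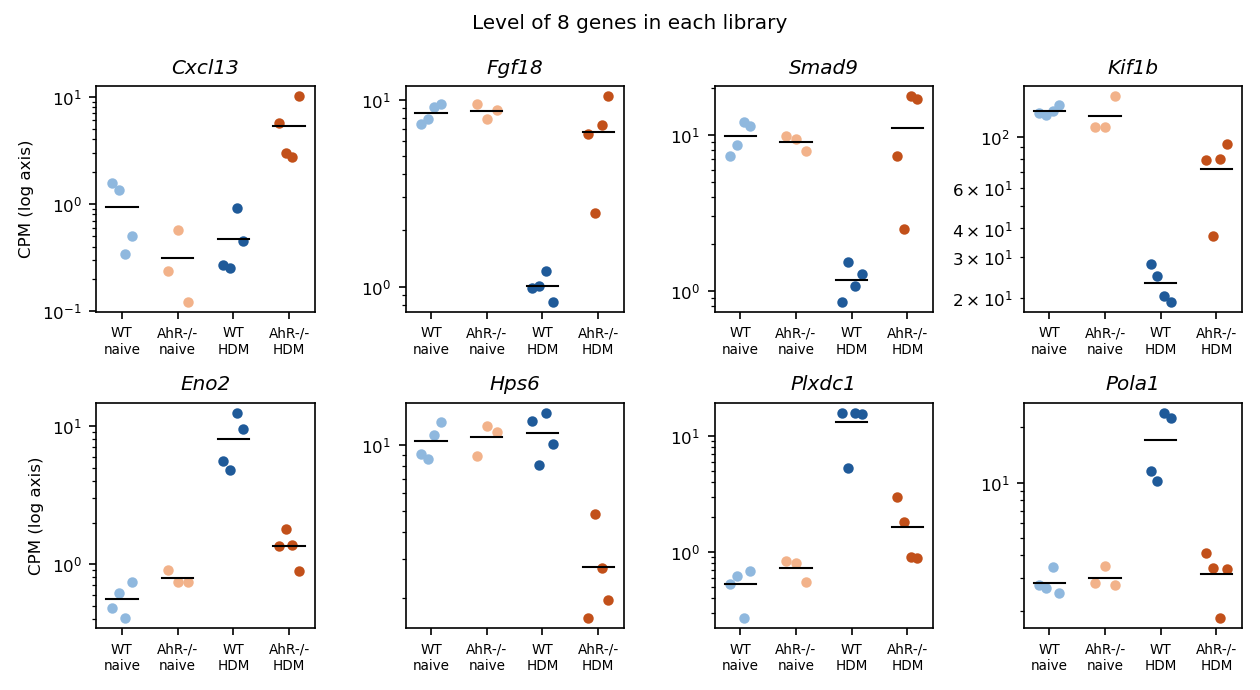
CPM of 8 genes of lowest p in each library (log axes), 1 point per library and a bar at the group mean. In the upper row (Cxcl13, Fgf18, Smad9 and Kif1b) the 4 AhR-/- HDM libraries lie above the 4 WT HDM libraries, and in the lower row (Eno2, Hps6, Plxdc1 and Pola1) they lie below them.

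Gene lists were read by the number of members at an unadjusted interaction p under 0.05 and by their median, against 9.27% (positive) and 9.06% (negative) of all genes tested and a median over all of 0.02. The median of HDM differences is given beside that of naive differences. In sorted bulk cells, fewer cells of a type and less RNA per cell cannot be told apart.

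Alveolar type 1 genes stood higher in AhR-/- relative to WT after HDM than before. Of 22 tested, 10 had a positive and 0 a negative interaction at an unadjusted p under 0.05, with a median of 1.83, made of 0.11 in naive and 2.04 in HDM mice. The mean log2 CPM of the list was 9.95, 10.17, 10.12 and 10.40 in WT naive and 10.20, 10.21 and 10.41 in AhR-/- naive libraries. After HDM it was 8.06, 8.01, 7.04 and 5.41 in WT and 9.07, 7.87, 9.62 and 9.89 in AhR-/- libraries, so that replicate 2 of AhR-/- lay inside the WT range and the other 3 above it. Cldn18, the claudin of alveolar tight junctions, was at 1478 to 2436 CPM in naive, 399, 395, 196 and 94 in WT HDM and 1030.0, 489, 1349.9 and 1358 in AhR-/- HDM libraries (1.69 ± 0.72). Akap5, a scaffold of protein kinase A, had an interaction of 2.09 ± 0.76, Lmo7, an actin-linked junction protein gene, 1.95 ± 0.81, and Igfbp2, a binding protein of insulin-like growth factors, 2.27 ± 0.97. Without AhR-/- HDM replicates 3 and 4 the median was 1.03 and 0 of the members remained at an unadjusted p under 0.05, and with the hematopoietic score in the fit 4 did.

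Airway cell genes leaned the same way. Of 27 ciliated cell genes, 11 had a positive and 0 a negative interaction (median 1.35), and 12 were positive without AhR-/- HDM replicates 3 and 4. Ccdc113, a protein of cilia, stood at 1.85 to 6.12 CPM in naive, 0.942, 2.54, 0.304 and 1.79 in WT HDM and 7.88, 5.24, 5.46 and 2.83 in AhR-/- HDM libraries (2.57 ± 0.93). Sntn, the sentan of ciliary tips, had 2.37 ± 0.89. Among 30 club, goblet and basal cell genes, 4 were positive and 0 negative (median 1.41). The secretoglobin gene Scgb3a2, a club cell product, was at 46.2, 82.5, 4.72 and 5.00 CPM in WT HDM and 671, 327, 515 and 138 in AhR-/- HDM libraries, against 48.7 to 120.3 in naive libraries (3.24 ± 1.45). Agr2, a protein disulfide isomerase needed to make mucin, was at 0.298 to 1.49 CPM in naive, 1.93, 7.10, 1.22 and 0.641 in WT HDM and 30.5, 22.8, 19.1 and 15.9 in AhR-/- HDM libraries (3.14 ± 1.20), and the antimicrobial secretory protein gene Bpifa1 had 3.26 ± 1.09.

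Alveolar type 2 genes had a median of 0.74 with 0 positive and 0 negative members of 25, but 12 were positive without AhR-/- HDM replicates 3 and 4 and the median was -0.24 by voom. Sftpc, the surfactant protein C gene, was at 13799, 7002, 3127 and 1671 CPM in WT HDM and 51111, 18995, 6001 and 4760.3 in AhR-/- HDM libraries (2.02 ± 1.21). The groups overlapped, and neither Sftpc nor Nkx2-1 was at an unadjusted p under 0.05. Nkx2-1, the lung epithelial master regulator, was at 20.4, 23.3, 11.6 and 7.63 CPM in WT HDM and 91.9, 99.4, 48.7 and 54.4 in AhR-/- HDM libraries without overlap, but ranged from 35.1 to 326 CPM in naive libraries (2.13 ± 1.08). Keratin and transitional repair genes, a list of cells between type 2 and type 1, gave 7 positive and 2 negative of 24 (median 0.87), among them Krt18, the keratin of simple epithelia, at 1.54 and the p53 gene Trp53 at -1.33.

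Cell junction genes were among those with the most positive members. In the tight junction list 17 of 38 were positive and 1 negative (median 1.06), and 9 and 1 without AhR-/- HDM replicates 3 and 4. Magi1 and Magi3 encode scaffolds of tight junctions. Magi1 was at 35.9 to 48 CPM in naive, 8.65, 11.9, 4.72 and 3.78 in WT HDM and 40, 14.3, 40.5 and 43.5 in AhR-/- HDM libraries (2.06 ± 0.62, adjusted p = 0.149), and Magi3 had 2.74 ± 0.83. The negative member was Cldn1, a sealing claudin of squamous and airway epithelium, at 0.864 to 1.67 CPM in naive, 405, 185, 646 and 382 in WT HDM and 58.3, 33.4, 2.73 and 4.95 in AhR-/- HDM libraries (-4.07 ± 1.28, adjusted p = 0.149). Cldn1 was thus higher in each HDM than in each naive library in both genotypes, and least so in AhR-/- replicates 3 and 4. Ptprc ranked the WT HDM libraries in the same order and was also lowest of the HDM libraries in those 2 replicates. The part of leukocyte reads in Cldn1 was not tested. Of 30 genes of adherens junctions, desmosomes and gap junctions, 8 were positive and 1 negative (median 0.72), led by the afadin gene Afdn (1.45 ± 0.41), Nectin3, an adhesion receptor that binds afadin (2.82 ± 0.82), the desmoplakin gene Dsp (2.08) and the beta-catenin gene Ctnnb1 (1.22).

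TGF-beta and BMP signalling, pathways of growth control and differentiation in the epithelium, had 20 positive and 0 negative members of 51 (median 0.95). Their mean log2 CPM was 3.58, 3.46, 3.58 and 3.44 in WT naive, 3.36, 3.55 and 3.39 in AhR-/- naive, 2.99, 3.12, 2.43 and 2.60 in WT HDM and 3.56, 3.51, 3.41 and 3.58 in AhR-/- HDM libraries. All 4 AhR-/- HDM libraries lay above all WT HDM libraries and within or at the edge of the naive range. Bmpr1a, a BMP receptor, was at 70.9 to 117 CPM in naive, 20, 22.1, 11.1 and 8.27 in WT HDM and 80.4, 37.3, 128 and 115 in AhR-/- HDM libraries (2.45 ± 0.65, adjusted p = 0.149). Id4, an inhibitor of helix-loop-helix factors induced by BMP, had 2.79 ± 0.67, Inhbb, a subunit of activin, 2.07 ± 0.53, and Smad9 is described above. Without AhR-/- HDM replicates 3 and 4, 17 of the members were positive and 0 negative (median 0.75).

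Of the 27 gene lists, that of the cell cycle had the lowest median and the largest count of negative members. Of 50 tested, 33 were negative and 0 positive at an unadjusted p under 0.05, with a median of -2.03, made of -0.16 in naive and -2.24 in HDM mice. After HDM, 45 of the 50 passed the adjusted threshold of edgeR's test and were lower in AhR-/-, against 12.5% of all genes, but without AhR-/- HDM replicates 3 and 4 only 1 did. The mean log2 CPM was 1.39, 1.22, 1.30 and 1.09 in WT naive, 1.31, 0.98 and 1.04 in AhR-/- naive, 4.99, 3.88, 5.50 and 5.08 in WT HDM and 3.41, 3.34, 1.24 and 1.84 in AhR-/- HDM libraries. Both genotypes lay above their naive level after HDM apart from AhR-/- replicate 3, which lay within it, and every AhR-/- HDM library lay below every WT HDM library. Mcm2, Mcm3 and Mcm7 are subunits of the helicase that opens replication origins. Mcm7 was at 6.03 to 8.74 CPM in naive, 39.5, 18.3, 46.3 and 40.1 in WT HDM and 10, 11.2, 3.64 and 4.06 in AhR-/- HDM libraries (-2.38 ± 0.60, adjusted p = 0.149), Mcm2 had -2.41 ± 0.69 and Mcm3 -3.05 ± 0.87. Iqgap3, a scaffold gene of dividing cells, had -2.66 ± 0.77. Without AhR-/- HDM replicates 3 and 4, 18 were negative and 0 positive (median -1.46), and with the hematopoietic score in the fit 37 were negative. Dividing leukocytes express these genes too, and Ptprc had a negative log2 difference in both states, with an interaction of -0.53 ± 1.28.

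**Figure D4:**
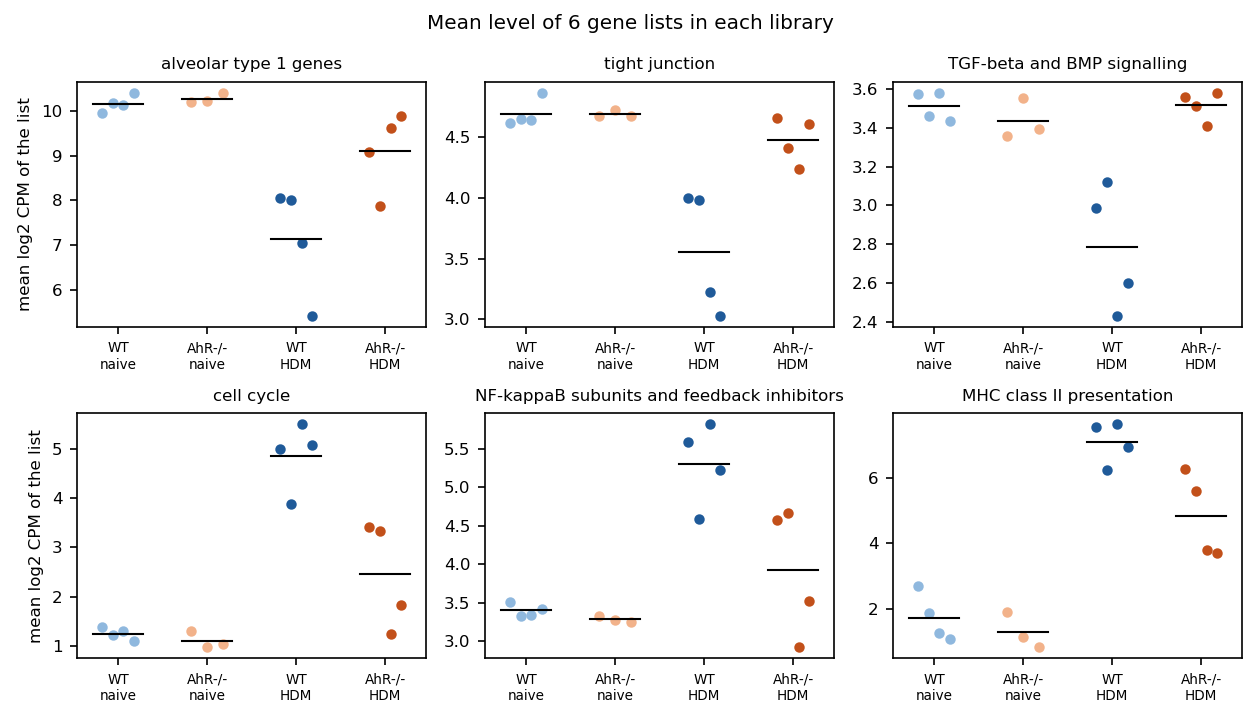
Mean log2 CPM of 6 gene lists in each library (each panel has its own axis), 1 point per library and a bar at the group mean. The alveolar type 1, tight junction and TGF-beta and BMP lists are lower in WT HDM than in AhR-/- HDM libraries on average, and the cell cycle, NF-kappaB and MHC class II lists are higher in WT HDM libraries.

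Receptors and signal proteins of innate immunity leaned to the negative side. NF-kappaB subunits and inhibitors, which carry signals from allergen and cytokine receptors to the nucleus, gave 12 negative and 0 positive of 28 (median -1.07), with a median HDM minus naive value of 1.95 in WT and 0.41 in AhR-/-. Map3k14, the kinase of the non-canonical pathway, was at 2.84 to 3.69 CPM in naive, 15.5, 9.64, 21.2 and 15.5 in WT HDM and 5.12, 4.55, 2.73 and 1.77 in AhR-/- HDM libraries (-2.20 ± 0.58, adjusted p = 0.149). Relb, a subunit of that pathway, had -2.35 ± 0.82, and Ikbkb, a kinase of the canonical one, -1.72 ± 0.61. Toll-like receptors and adaptors gave 8 negative and 1 positive of 38 (median -0.53). Unc93b1, which brings nucleic-acid sensing receptors to the endosome, had -2.54 ± 0.77 and the kinase gene Irak4 -2.09 ± 0.64, whereas Tlr5, the flagellin receptor, was positive at 1.19 ± 0.41. Tlr5 stood at 19.5 to 41.1 CPM in naive, 2.43 to 3.81 in WT HDM and 4.98 to 9.54 in AhR-/- HDM libraries. NOD-like receptors and the inflammasome had 5 negative and 0 positive of 35 (median -0.96), with Gsdmd, the pore protein of pyroptosis, at -1.50 ± 0.52 and Nod2, a peptidoglycan sensor, at -2.11 ± 0.78.

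Cytokine signalling and antigen presentation followed. In the JAK-STAT list 17 of 62 were negative and 3 positive (median -0.88). Tyk2, a kinase of interferon and interleukin receptors, was at 16.4 to 22.1 CPM in naive, 74.9, 37, 104 and 71.8 in WT HDM and 15.7, 22, 8.64 and 10.8 in AhR-/- HDM libraries (-2.34 ± 0.60, adjusted p = 0.149), and the transcription factor gene Stat5a had -2.75 ± 0.76. MHC class I and immunoproteasome genes gave 8 negative and 0 positive of 21 (median -0.94), with the peptide transporter gene Tap1 at -2.13 ± 0.74 and the proteasome subunit gene Psmb9 at -1.95 ± 0.71. MHC class II genes gave 5 negative and 0 positive of 18 (median -1.36). Ciita, the master switch of class II genes, was at 0.800 to 3.16 CPM in naive, 238, 83.7, 409.8 and 243 in WT HDM and 45, 43.3, 5.46 and 6.36 in AhR-/- HDM libraries (-2.78 ± 1.08). Leukocytes express the class II genes as type 2 cells do, and AhR-/- HDM replicates 3 and 4 were lowest for Ciita as for Ptprc. Without AhR-/- HDM replicates 3 and 4, where 4.94% of all genes were negative, negative members numbered 4 for NF-kappaB, 4 beside 3 positive ones for Toll-like receptors, 2 for NOD-like receptors, 10 for JAK-STAT, 2 for MHC class I and 1 for MHC class II. The counts of NOD-like receptors and MHC class II are then near the share of all genes, and no member of the lists other than the Toll-like receptors was positive. With the hematopoietic score in the fit of all libraries, negative members numbered 10 for NF-kappaB, 11 for Toll-like receptors, 8 for NOD-like receptors, 21 for JAK-STAT, 7 for MHC class I and 8 for MHC class II.

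Interferon response genes had 6 negative and 2 positive members of 48 (median -0.28), with Dhx58, a regulator of RNA sensing, at -2.20 ± 0.74 and the interferon-induced gene Ifit3b at 1.88 ± 0.78. Chemokines and their receptors were split, 6 positive and 6 negative of 51 (median 0.17). Beside Cxcl13, the monocyte chemokine gene Ccl7 was positive at 4.14 ± 1.34, and Ackr3, a scavenger receptor of CXCL12, at 1.69 ± 0.57. Cxcl9, an interferon-induced T cell chemokine, was negative at -3.37 ± 1.10, with 18.8, 5.07, 8.37 and 12.9 CPM in WT HDM and 0.358, 2.23, 0 and 1.59 in AhR-/- HDM libraries. Among alarmins and the IL-1 family, 2 were positive and 4 negative of 22 (median 0.54). Receptors were among the negative members. Il1rl1, the receptor of IL-33, was at 0.736 to 2.53 CPM in naive, 7.44, 8.63, 32.4 and 26.7 in WT HDM and 3.51, 3.26, 2.27 and 2.12 in AhR-/- HDM libraries (-2.91 ± 0.86), and Crlf2, the receptor of thymic stromal lymphopoietin, had -2.73 ± 1.02. S100a8, a neutrophil alarmin, was positive at 4.12 ± 1.69 but ranged from 0.322 to 79.3 CPM within the WT naive group.

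Genes of the AhR pathway gave 2 positive and 2 negative members of 21 tested of 26 listed (median -0.37), shares near those of all genes. The counts were 2 and 5 with only the 15 libraries fitted and 2 and 9 by voom, where 2165 of 16137 and 3925 of 16639 genes were negative. Nqo1, a quinone reductase induced by AhR and NRF2, was at 3.34, 4.69, 2.57 and 3.04 CPM in WT naive, 3.89, 4.37 and 3.94 in AhR-/- naive, 0.897, 0.507, 1.07 and 0.769 in WT HDM and 3.62, 3.52, 4.55 and 1.59 in AhR-/- HDM libraries. The low group was WT HDM, without overlap with the others, and the interaction was 1.71 ± 0.55 (adjusted p = 0.149). The glutathione transferase gene Gstm1 had 1.97 ± 0.70. On the negative side, Kynu, the kynureninase of tryptophan breakdown, was at 0.598 to 1.60 CPM in naive, 40.9, 12.2, 64.8 and 38.3 in WT HDM and 13.6, 7.99, 2.73 and 1.77 in AhR-/- HDM libraries (-2.40 ± 1.02). Ugt1a7c, a glucuronosyltransferase, had -1.55 ± 0.65, but shares 54.6% of its exon length with its neighbours of the Ugt1a cluster, and how the counting split such reads is not given in the sources used here. The same holds for reads shared by near-identical members of the glutathione transferase, MHC and Ifit families. Of further known targets and regulators, chosen after their values were seen, none stood out. Cyp1a1 and Cyp1a2 did not pass the filter and reached at most 0.597 and 0.884 CPM in the 15 libraries. Cyp1b1 was at 0.369 to 2.31 CPM over all 15 libraries with an interaction of -0.15 ± 0.69. Ahrr, the AhR repressor, and Tiparp, an ADP-ribosyltransferase of its feedback, had -1.01 ± 0.96 and 0.38 ± 0.60, and none of the 3 was at an unadjusted p under 0.05.

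NRF2 and glutathione genes were found on both sides. Of 26 tested, 7 were positive and 5 negative (median 0.44). The glutathione transferase gene Gsta3 was at 53.8 to 97.1 CPM in naive, 6.14, 8.88, 4.41 and 1.60 in WT HDM and 72.8, 23.3, 93.3 and 67.7 in AhR-/- HDM libraries (3.12 ± 0.83, adjusted p = 0.149), and Gstm2 had 2.53 ± 0.69. G6pdx, the first enzyme of the pentose phosphate pathway, was negative at -1.66 ± 0.58. Notch signalling gave 4 positive and 5 negative of 29 (median 0.13), the target genes Hes1 (2.97 ± 0.86) and Hey1 (2.59 ± 0.81) being positive and the receptor gene Notch2 (-1.60 ± 0.50) negative. Sterol and fatty acid synthesis leaned to the negative side with 6 negative and 1 positive of 34 (median -0.67), among them Srebf2, which switches on the genes of cholesterol synthesis (-1.54 ± 0.56).

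Smaller counts were found in 3 lists. The unfolded protein response had 1 positive and 3 negative of 27 (median -0.20), oxidative phosphorylation 0 and 1 of 40 (median -0.26), and immediate early genes 2 and 1 of 32 (median -0.28). In the last, Zfp36, which destabilizes cytokine mRNA, had -1.71 ± 0.66 and Ccn1, a matricellular protein gene, 1.84 ± 0.75. These shares lie at or under those of all genes tested except for the negative members of the unfolded protein response. With AhR-/- HDM replicates 3 and 4 left out, positive and negative members numbered 7 and 0 for NRF2 and glutathione, 5 and 0 for keratin and repair, 3 and 4 for Notch, 1 and 2 for sterol synthesis, 1 and 3 for interferon, 7 and 2 for chemokine and 4 and 2 for alarmin genes.

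**Figure D5:**
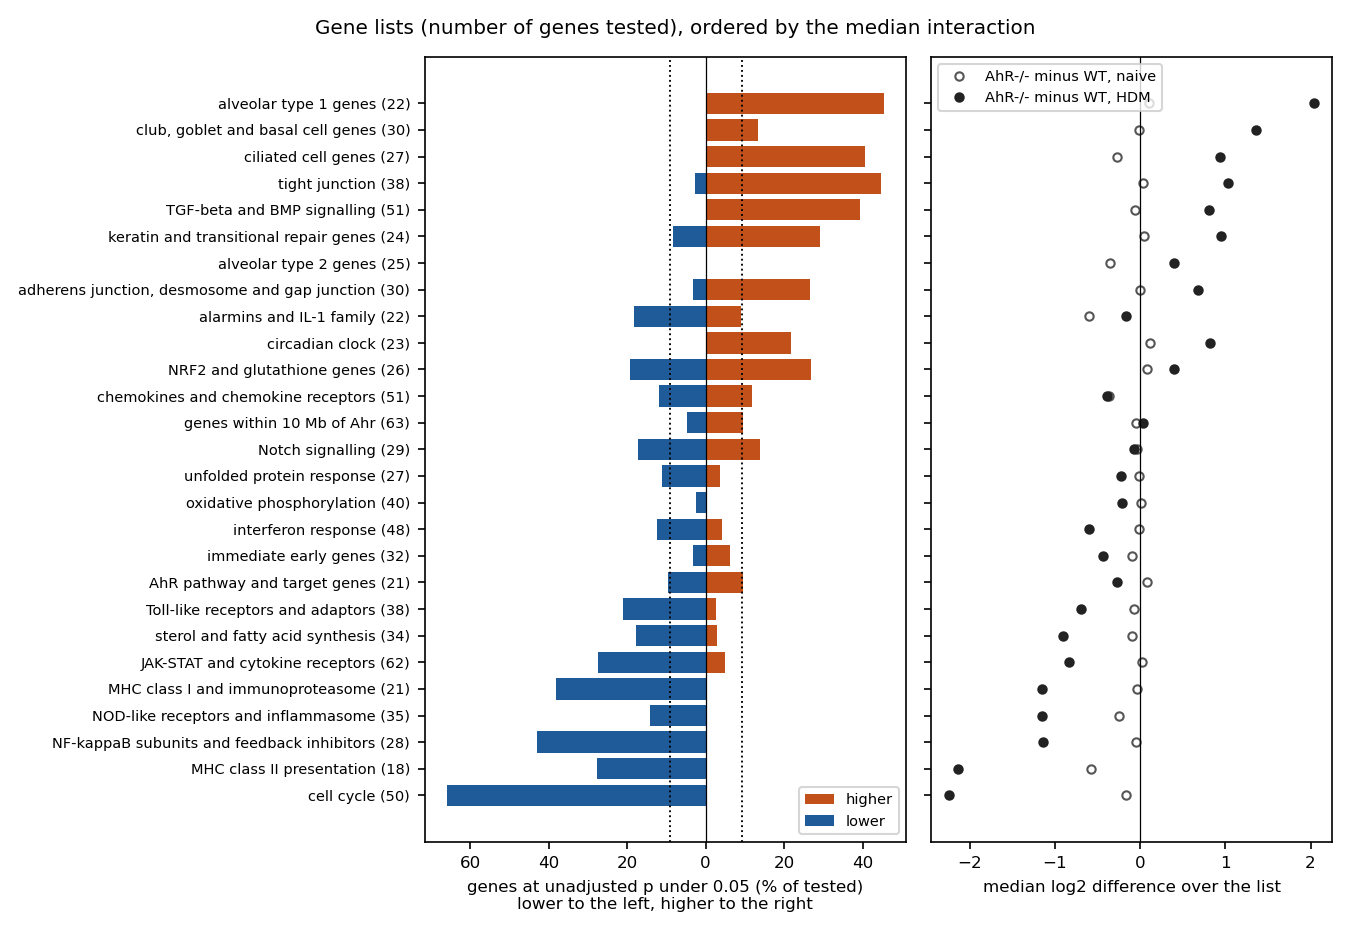
Left, share of the tested genes of each list with an unadjusted interaction p under 0.05 (negative to the left in blue, positive to the right in orange), with dotted lines at 9.06% and 9.27%, the shares over all genes tested. Right, the median log2 difference between AhR-/- and WT over each list in naive (open) and HDM (filled) libraries, where the naive medians lie between -0.60 and 0.12 and the HDM medians between -2.24 and 2.04.

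Clock genes showed differences that were alike in both states, with small interactions for several of them. Cry1, a repressor of the clock, was at 31.7, 26.6, 23.1 and 27 CPM in WT naive, 8.98, 9.42 and 11 in AhR-/- naive, 22.4, 13.4, 20.5 and 22.8 in WT HDM and 7.38, 10.8, 3.64 and 7.07 in AhR-/- HDM libraries. AhR-/- was lower without overlap in both states, with log2 differences of -1.47 in naive and -1.41 in HDM mice, and the interaction was 0.06 ± 0.48 (adjusted p = 0.975). Nr1d2, a nuclear receptor that represses Arntl, was higher without overlap in both, with 1.58 and 1.71 (interaction 0.13 ± 0.58). Bhlhe41, another repressor, had 1.46 and 2.00 (interaction 0.54 ± 0.51). None of these 3 interactions was at an unadjusted p under 0.05, and of the differences those after HDM passed the adjusted threshold of edgeR's test while those in naive mice did not. Over the clock list, 9 genes were called higher and 2 lower after HDM, and 3 and 0 without AhR-/- HDM replicates 3 and 4, so that the call of Cry1 was lost. Arntl, the activator of the clock, was lower in AhR-/- naive libraries (12.7, 18 and 12.7 against 36.5, 31.4, 35.8 and 35.4 CPM) and overlapped after HDM (8.24, 11.6, 13.2 and 16.8 against 18.2, 14.7, 15.1 and 11.6 CPM), an interaction of 0.99 ± 0.39. Clock, its partner in activation (1.27 ± 0.42), and Per3, a period gene (1.64 ± 0.65), were positive too. In all, 5 of 23 were positive and 0 negative (median 0.52), and 4 positive without AhR-/- HDM replicates 3 and 4. The hour at which mice were killed was not used here, and its part was not tested.

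Genes within 10 Mb of Ahr on chromosome 12, which a backcross can leave from the donor strain, gave 6 positive and 3 negative of 63 tested (median 0.16). Acp1, an acid phosphatase gene, was at 10.6, 9.38, 11 and 13.2 CPM in WT naive, 1.86, 2.18 and 3.75 in AhR-/- naive, 15.8, 5.84, 14.5 and 10 in WT HDM and 3.12, 1.89, 2.27 and 2.83 in AhR-/- HDM libraries. It was lower in AhR-/- without overlap in both states, with -2.09 and -2.18, and the interaction was -0.09 ± 0.47 (adjusted p = 0.957). Agr2, described above, also lies in this window, as do Agmo, which cleaves ether lipids (1.79 ± 0.64), and Efcab10 (2.94 ± 0.91).

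Marker lists of other cell types were read in the same way. Macrophage and myeloid markers had 0 positive and 0 negative of 20 (median -0.27), with a median log2 difference of -1.39 in naive and -1.64 in HDM mice. Mesenchymal markers gave 4 positive of 12 (median 1.60), endothelial markers 3 of 12 (median 1.21) and granulocyte markers 3 of 10 (median 1.37), with 0 negative in each. Leaving out AhR-/- HDM replicates 3 and 4, these counts were 2, 4 and 4, and that of myeloid markers was 3. T and NK cell markers gave 0 of 17 in either direction (median 0.27), B and plasma cell markers 1 negative of 14 (median 0.27) and epithelial markers 1 positive of 7 (median 0.59). The mesenchymal markers summed to 262 to 906 CPM in WT HDM and 81.1 to 248 in AhR-/- HDM libraries, lower in AhR-/- although their median log2 difference was 1.05. The endothelial sums were 36 to 74.1 and 19.6 to 53.9 CPM. The 4 Y-linked genes were all positive at an unadjusted p under 0.05, and 1 of them without the 2 libraries named above.

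With the libraries labelled CYP1B1-/- in place of WT as the reference, the same contrast had 0 genes (0%) at the adjusted threshold of edgeR's quasi-likelihood test and 2098 (12.6%) at an unadjusted p under 0.05. The other tests called 16 (likelihood ratio), 119 (DESeq2) and 2110 (voom). The libraries labelled CYP1B1-/- had more Cyp1b1 reads than WT, 3.62, 5.78 and 5.89 CPM in naive against 0.644 to 1.91 in WT, and 8.48, 13.5, 4.98 and 5.15 CPM after HDM against 0.897 to 2.31. Counts over all exons do not show whether the deleted part was read, and CYP1B1-/- here names the label. The 4 Y-linked genes summed to 66.6 to 236 CPM in CYP1B1-/- naive and to 0 to 0.201 CPM in CYP1B1-/- HDM libraries. Sex thus differs between the states in this reference as it does in WT. This contrast shares its AhR-/- libraries with the one against WT, so list medians are given side by side only. They were 1.83 against WT and 2.15 against CYP1B1-/- for alveolar type 1 genes, 0.95 and 0.78 for TGF-beta and BMP signalling, 1.06 and 1.07 for tight junctions, -2.03 and -1.94 for the cell cycle and -1.07 and -0.76 for NF-kappaB. Ciliated cell genes had 1.35 against WT and 0.21 against CYP1B1-/-, and alveolar type 2 genes 0.74 and -0.42.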

How the data were processed

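Bulk RNA-seq was done by a template-switching method primed from the poly(A) tail. Per the authors' methods and processing notes, reads were demultiplexed with bcl2fastq 2.19.1, aligned with GSNAP to mm10 (GRCm38) and counted per Ensembl gene with featureCounts 2.0.0, and the deposited values are raw counts per gene in 2 tables, 1 for naive and 1 for HDM libraries. Strand and multimapping settings are not given in the sources used here.

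The tables were joined by gene identifier. Counts of protein-coding genes (GENCODE M21, GRCm38) were kept where filterByExpr of edgeR 4.0.16 (R 4.3.3) found enough reads (minimum count 10, total 15), scaled by TMM and fitted over all 22 libraries in 6 groups with a robust quasi-likelihood model, since a fit to all groups shares one estimate of the spread. P-values were adjusted by Benjamini-Hochberg over 16639 genes. Standard errors are the fold change divided by the root of F. CPM use the TMM library size, and log2 CPM a prior count of 1. Promoter windows came from RefSeq (GRCm38.p6).

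Named genes were Ahr, Epcam and Ptprc, the 12 of lowest p in each direction, and up to 4 members of lowest p of each of 27 lists, with 4 more by the naive contrast for the clock and Ahr neighbour lists (138 genes in all, not all of them printed). The AhR targets Cyp1a1, Cyp1a2, Cyp1b1, Ahrr and Tiparp were added after their values were seen. The members and lists were chosen with earlier results of these data known. Alternatives were the edgeR likelihood ratio test, DESeq2 1.42.0, limma 3.58.1 voom with sample weights, other size factors and filters, a hematopoietic score as covariate, a replicate block, all genes listed, and fits without libraries. The fits of 15 libraries by likelihood ratio and of 13 libraries were chosen after seeing the data. The fitting step for the interaction was also run on simulated counts with known interactions, by the quasi-likelihood and likelihood ratio tests, DESeq2 and voom.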

Additional observations from a re-analysis of the deposited data

Results flagged for a closer look

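Of 108 sets of 4 libraries searched for a library far from the others, 5 held one, where 1 in 20 by chance would give 5.4. Ahr was at 3.69 log2 CPM in AhR-/- HDM replicate 2, under the 4.58 to 4.68 of the other 3. Plxdc1 was at 2.43 log2 CPM in WT HDM replicate 2, under the 3.96 to 3.99 of the others. Total counts were 17707000 in WT naive replicate 4, above 10476829 to 11273312, and 15512503 in WT HDM replicate 1, above 9654825 to 10319824. Protein-coding counts outside the 6 predicted genes were 14120921 in WT naive replicate 4, above 7908148 to 8219962.

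In 3 of the 24 genes of lowest p, the AhR-/- and WT libraries did not overlap in either state and the difference had opposite signs in the 2 states. The interaction, which tests whether the differences are equal, was 1.73 for Cemip2, 2.15 for Tex15 and -3.03 for Eno2, each with an adjusted p of 0.149 in edgeR's test. A change of sign was not tested. The naive difference stood at an unadjusted p under 0.05 for Cemip2 but not for Tex15 or Eno2, and for Eno2 the naive groups came as close as 0.738 and 0.736 CPM.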

How the results depend on the processing

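The 24 genes of lowest p kept the direction of their interaction and an unadjusted p under 0.05 in all 730 alternative values computed for them. They were chosen for their low p in the same libraries, so these values are no independent test of them. The count of genes at the adjusted threshold did not keep. From 0 it went to 221 by the likelihood ratio test (107 positive), 1236 by DESeq2 (534), 4735 by voom (1794), 1001 with the 15 AhR-/- and WT libraries alone (448) and 2158 with these and the likelihood ratio test (1014), and it ranged from 0 to 1017 when leaving out 1 library, the highest without AhR-/- HDM replicate 2. The count at an unadjusted p under 0.05 (3050) was 6715 by voom and 2114 (without WT HDM replicate 3) to 4140 (without AhR-/- HDM replicate 2) when leaving out 1 library. Naive calls went from 0 to 1 by the likelihood ratio test, 3 by DESeq2 and 26 by voom. HDM calls (3966) went to 165 without AhR-/- HDM replicates 3 and 4, of which 130 were higher. Against CYP1B1-/-, calls went from 0 to 16, 119 and 2110 by likelihood ratio, DESeq2 and voom, and the unadjusted count (2098) to 4470 by voom and 1174 without AhR-/- HDM replicates 3 and 4. Upper-quartile scaling moved the median interaction of all genes from 0.02 to 0.19. The cause of these shifts was not tested.

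Libraries of the same replicate number did not deviate together throughout: of 7 same-numbered pairs across genotypes within a state, 3 correlated over 0.1 (range -0.36 to 0.40 over 9476 genes). With so few libraries per group, these correlations cannot exclude a batch shared by number. With the replicate block the interaction had 0 calls and 2582 genes at an unadjusted p under 0.05, the naive contrast 1 call and the HDM contrast 3595, and Acp1 turned to 0.11.

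The sign turned in 4 genes, with no unadjusted p under 0.05. Ptprc turned from -0.53 to 0.29 with 13 libraries and to 0.30 in the full fit without AhR-/- HDM replicates 3 and 4. Cry1 was at -0.12 by voom, Nr1d2 at -0.0068 with the hematopoietic score, and Acp1 at 0.11 with upper-quartile scaling. Leaving out 1 library gave -0.19 to 0.24 for Cry1, -0.15 to 0.43 for Nr1d2 and -0.29 to 0.26 for Acp1. AhR-/- HDM replicate 3 limits low genes, since 3 counts there are 1.36 CPM.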
